A study of Mus musculus with 6 samples.

Results

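The RNAs encoded by the mitochondrial genome were examined in melanoma cells with and without OSGEP. They were taken as every gene whose symbol starts with mt-, which gave 37 of the 55487 genes listed, namely 13 protein genes, 2 rRNAs and 22 tRNAs. B16F10 is a mouse melanoma cell line, and its genotype was labelled as wild type in both groups. Cells were infected with lentivirus carrying a scramble shRNA (shCtr) or the hairpin numbered 2 against OSGEP (shOSGEP), selected with puromycin, and sequenced as polyA RNA from 3 separate infections per group. The depleted group therefore stands for 1 hairpin in 1 cell line. In the cytosol, t6A is added to tRNAs that read codons starting with A by KEOPS, whose catalytic subunit is OSGEP. Mitochondrial tRNAs receive t6A from a separate enzyme, OSGEPL1, and the comparison asks how mitochondrial transcripts stood when OSGEP was low.

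Mitochondrial DNA is transcribed from both strands as long precursors by the polymerase POLRMT with the factor TFAM. The tRNAs that separate most of the other genes are cut out, and most of the released mRNAs and the rRNAs receive short polyA tails from MTPAP. The proteins encoded there are all subunits of respiratory complexes I, III, IV and V, and the rRNAs build the mitochondrial ribosome that makes them.

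The shCtr and shOSGEP libraries held from 18915587 to 29487384 counts each. Osgep itself was measured at 22.6, 40.5 and 22.7 CPM (counts scaled to the library total) in shCtr against 4.86, 0.579 and 5.75 CPM in shOSGEP, in the order of replicate number. All 7 melanoma markers were present, summing to between 3789 and 20548 CPM, whereas 14 markers of blood, fibroblast, keratinocyte, endothelial and muscle cells summed to between 6.25 and 8.52 CPM, with 11 of them under 1 CPM in every library. The second library of each group stood apart from the rest. In the second shOSGEP library most melanoma markers were low, with Pmel at 518 CPM against 3828 to 9175 CPM and Dct at 772 CPM against 4211 to 6352 CPM in the other five libraries. Relative to the mean of the other shOSGEP libraries, its median log2 difference was -1.13 over the tested nuclear genes under 40% GC and -0.75 over the mitochondrial protein genes. The second shCtr library was further off in GC-poor genes. Relative to the mean of the other shCtr libraries, its log2 level differed by a median of -3.19 over the 751 tested nuclear genes under 40% GC and of 1.46 over the 512 genes over 60% GC. Its median difference was -2.01 over the mitochondrial protein genes and -0.48 over the mitochondrial rRNAs, whose GC content lay between 31.9% and 41.1%.

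The tRNAs whose codons start with A are printed here because t6A is found in tRNAs of this class. Whether each of them carries t6A was not measured. The sequences were taken from the GENCODE M21 transcripts of GRCm38 and run 5′ to 3′. Capitals mark the anticodon and the base that follows it, which is position 37, the site of t6A in the tRNAs that carry it.
mt-Ti (isoleucine, chrM:3706-3774, plus strand): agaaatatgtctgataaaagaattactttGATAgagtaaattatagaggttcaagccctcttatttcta
mt-Tm (methionine, chrM:3845-3913, plus strand): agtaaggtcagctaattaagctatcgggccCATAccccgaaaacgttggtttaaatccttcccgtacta
mt-Tt (threonine, chrM:15289-15355, plus strand): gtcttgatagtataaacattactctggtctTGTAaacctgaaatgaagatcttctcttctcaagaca
mt-Tn (asparagine, chrM:5089-5159, minus strand): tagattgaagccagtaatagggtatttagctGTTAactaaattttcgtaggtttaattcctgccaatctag
mt-Tk (lysine, chrM:7700-7764, plus strand): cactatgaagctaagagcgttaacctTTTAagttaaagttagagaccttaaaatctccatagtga
mt-Ts2 (serine, chrM:11613-11671, plus strand): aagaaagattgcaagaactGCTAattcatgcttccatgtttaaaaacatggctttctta
Each anticodon was located by a search that required an A after it, so the A in all 6 was set by the search. The codons these tRNAs serve made up 32.9% of the 3790 sense codons in the mitochondrial protein genes, from 23.3% in mt-Nd6 to 42.6% in mt-Nd2.

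The mitochondrial tRNAs themselves were all but undetected in either group. Of the 22 tRNAs, 20 were listed at 0 counts in all 6 libraries, and the whole class held 3 counts. mt-Tm had 2 counts in the first shOSGEP library and mt-Tn had 1 count in the second shCtr library, while the other four tRNAs printed above were at 0 throughout. A count of 0 allows up to 3 counts, equal to between 0.102 and 0.159 CPM depending on the library, and this limit covers counting error only. These genes are between 59 and 75 bases long, the reads were 100 bases long and the RNA was selected by its polyA tail. A difference in mitochondrial tRNA level between the groups was therefore not detectable in these libraries, and no fold change is given for them.

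The mitochondrial protein genes formed a large and very uneven share of the RNA. Together they reached 43167, 5582 and 13964 CPM in the 3 shCtr libraries and 46066, 15984 and 12398 CPM in the 3 shOSGEP libraries. The means were 20905 ± 19730 CPM (SD, n = 3) in shCtr and 24816 ± 18490 CPM (SD, n = 3) in shOSGEP. The first library of each group was high, the second shCtr library was the lowest of all, and the groups overlapped. The log2 ratio of the means was 0.25, a difference far smaller than the spread between libraries. It was -0.20 without the second shCtr library, 1.34 without the first shCtr library and -0.56 without the first shOSGEP library, so that single libraries decided its direction. Because the RNA was extracted in bulk, fewer cells carrying a transcript and less of it per cell cannot be told apart.

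The plus and minus strands were not separated by the library kit, and 2 sequence features bear on how single genes can be read. Genes overlap, the longest overlap being the 43 bases where the end of mt-Atp8 lies inside the start of mt-Atp6, both of which encode subunits of complex V. The stretch is printed 5′ to 3′ with the start codon of mt-Atp6 and the stop codon of mt-Atp8 in capitals.
mt-Atp8/mt-Atp6 (chrM:7927-7969, plus strand): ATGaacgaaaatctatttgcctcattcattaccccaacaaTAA
mt-Nd4l and mt-Nd4 share 7 bases on the same strand, and mt-Nd5 shares 14 bases with mt-Nd6, the only protein gene on the minus strand. Reads over these stretches belong to both genes. In addition, 3 protein genes have no full stop codon in the genome, and their last bases are printed because the polyA tail by which this RNA was selected also completes the stop. The capital marks the lone T that the tail extends.
mt-Co3 (chrM:9361-9390, plus strand): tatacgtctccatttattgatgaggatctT
mt-Nd4 (chrM:11515-11544, plus strand): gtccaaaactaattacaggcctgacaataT
mt-Cytb (chrM:15259-15288, plus strand): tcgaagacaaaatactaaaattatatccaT
Their fitted Log2FC (log2 fold change, shOSGEP over shCtr) was 0.24 (SE 0.693), 0.22 (SE 0.840) and 0.03 (SE 0.921), each smaller than its error.

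Many reads of mitochondrial sequence were listed under nuclear pseudogenes. A block of copies on chromosome 1, between 24611535 and 24616197 on the minus strand of GRCm38, repeats the stretch from mt-Co1 to mt-Nd4. Gm28661 matched 681 bases of mt-Co2, Gm10925 matched 678 bases of mt-Atp6, Gm28437 matched 783 bases of mt-Co3 and Gm10222 matched 294 bases of mt-Nd4l, each with 0 mismatches. Gm28438 matched 345 bases of mt-Nd3 with 1 mismatch, T3C, the base of mt-Nd3 coming first and positions being counted from 1 at its 5′ end. Reads of identical sequence cannot be told apart, and the quantifier divided them between the gene and its copy.

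The division differed from gene to gene and from library to library. The copy held 82.7% to 89.7% of the summed counts of mt-Co2 and its copies, 64.6% to 74.8% for mt-Co3 and 42.3% to 64.9% for mt-Atp6. For mt-Nd4l the copy held 45.0% to 67.6%. The widest range was that of mt-Nd3, where the copy held 86.2%, 49.3% and 96.6% in shCtr and 94.6%, 80.5% and 81.1% in shOSGEP. For mt-Co1 the copies held at most 5.05% and for mt-Nd4 at most 0.415%, although Gm29216 aligned with 492 bases of mt-Co1 with 6 mismatches and Gm28439 with 876 bases of mt-Nd4 with 0. Over all genes, copies took between 22.1% and 28.2% of the counts on mitochondrial genes and copies together, and the groups overlapped in this share. Values are therefore given as deposited and, where it matters, with the counts of the copies added to their gene.

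**Figure D1:**
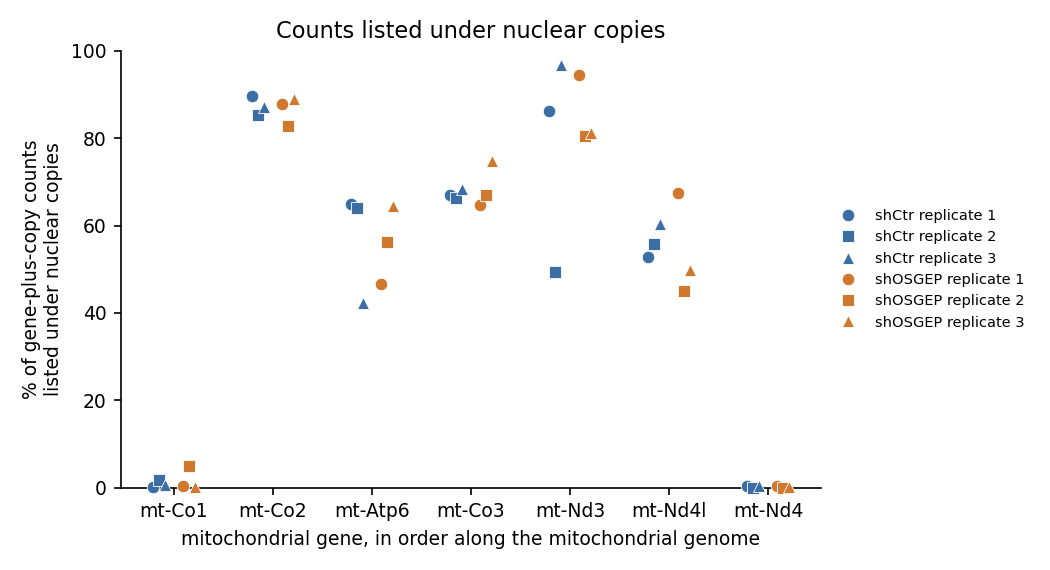
Share of the summed counts of a mitochondrial gene and its nuclear copies that was listed under the copies, in percent, for the 7 genes with a copy of at least 100 counts in some library. Each point is 1 library, coloured by group and shaped by replicate number. The points of mt-Co2 lie between 82.7% and 89.7%, those of mt-Nd3 spread from 49.3% to 96.6%, and those of mt-Nd4 lie near 0.

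The complex I genes encode the proton-pumping membrane arm of NADH dehydrogenase. Summed over the 7 genes with copies added, they stood at 16098, 2843 and 5643 CPM in shCtr against 17879, 5741 and 5092 CPM in shOSGEP. mt-Nd1 was the most abundant of them per length as deposited, and the steadiest in shCtr, at 5091, 1515 and 1961 CPM in shCtr and 5828, 2476 and 1973 CPM in shOSGEP. mt-Nd2 was measured at 2773, 583 and 955 CPM in shCtr against 2563, 815 and 753 CPM in shOSGEP. Within each group both genes ranked the libraries in the same order, with the first library highest.

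mt-Nd4 stood at 3919, 357 and 1257 CPM in shCtr against 4615, 1131 and 1078 CPM in shOSGEP. mt-Nd5 stood at 2940, 119 and 955 CPM in shCtr against 3333, 560 and 814 CPM in shOSGEP. The second shCtr library was thus 24.8-fold below the first for mt-Nd5 and 3.36-fold below it for mt-Nd1, so its deficit was not the same for genes of the same complex. mt-Nd6 encodes a further membrane subunit and had the lowest level of the protein genes in these polyA libraries, at 26.2, 2.37 and 14.5 CPM in shCtr and 24.9, 6.99 and 12.9 CPM in shOSGEP.

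The small complex I genes mt-Nd3 and mt-Nd4l depended on how their copies were treated. As deposited, mt-Nd3 read 81.9, 106 and 8.41 CPM in shCtr and 32.6, 108 and 42.5 CPM in shOSGEP, an order of libraries unlike that of any other complex I gene. With the counts of Gm28438 added it read 595, 208 and 250 CPM in shCtr and 598, 555 and 226 CPM in shOSGEP. mt-Nd4l read 348, 26.1 and 97.4 CPM in shCtr and 292, 108 and 117 CPM in shOSGEP as deposited. With its copy it read 737, 59.0 and 246 CPM in shCtr and 900, 196 and 233 CPM in shOSGEP. After the addition, the first libraries of both groups were highest for both genes, as they were for the rest of the complex.

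The complex III gene mt-Cytb, which encodes cytochrome b, stood at 9540, 584 and 2289 CPM in shCtr against 8725, 2276 and 2250 CPM in shOSGEP. Its libraries of replicate 1 differed by a log2 ratio of -0.13 and those of replicate 3 by -0.02, while those of replicate 2 differed by 1.96.

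The complex IV genes encode the catalytic core of cytochrome c oxidase. mt-Co1 was the most abundant protein gene as deposited, at 11231, 1602 and 3797 CPM in shCtr and 12728, 6003 and 3593 CPM in shOSGEP. mt-Co2 read 755, 214 and 304 CPM in shCtr and 782, 452 and 234 CPM in shOSGEP, and mt-Co3 read 2014, 285 and 664 CPM in shCtr and 1813, 1415 and 516 CPM in shOSGEP. With copies added, mt-Co2 read between 1451 and 7328 CPM over the 6 libraries and mt-Co3 between 845 and 6118 CPM. The second shOSGEP library held an unusually large part of its protein-gene counts in mt-Co1 and mt-Co3, at 28.1% and 18.99% with copies added, against 18.8% to 21.5% and 8.61% to 11.7% in the other five libraries.

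Among the complex V genes, which encode membrane subunits of ATP synthase, mt-Atp8 varied most within a group. It stood at 1714, 48.0 and 468 CPM in shCtr against 1554, 109 and 258 CPM in shOSGEP, a range of 35.7-fold among the shCtr libraries. mt-Atp6 read 2735, 141 and 1195 CPM in shCtr and 3776, 524 and 756 CPM in shOSGEP as deposited. With Gm10925 added, it read 7800, 392 and 2070 CPM in shCtr and 7071, 1196 and 2124 CPM in shOSGEP. In both groups the second library was the lowest for both genes.

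Ordered by mean CPM per kb over the 6 libraries, as deposited, the protein genes ran from mt-Co1 at 4202 ± 2911 (SD, n = 6), mt-Cytb at 3739 ± 3344, mt-Atp8 at 3391 ± 3656 and mt-Nd1 at 3282 ± 1919 down to mt-Nd3 at 182 ± 119 and mt-Nd6 at 28.2 ± 18.3. mt-Co1 exceeded mt-Cytb in 5 of 6 libraries, mt-Cytb exceeded mt-Atp8 in 4 and mt-Atp8 exceeded mt-Nd1 in 3, so neighbours at the top of the order did not differ beyond their spread. With copies added, mt-Co2 led at 5431 ± 3650 CPM per kb, ahead of mt-Atp6 at 5055 ± 4650, mt-Co3 at 4360 ± 2627 and mt-Co1 at 4253 ± 2916. mt-Nd6 remained last at 28.2 ± 18.3 CPM per kb. Levels of mt-Nd6 carry the doubt that reads from the transcripts on the other strand of the same DNA could not be separated. The order also depends on how well each RNA was captured by its polyA tail, which was not tested.

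**Figure D2:**
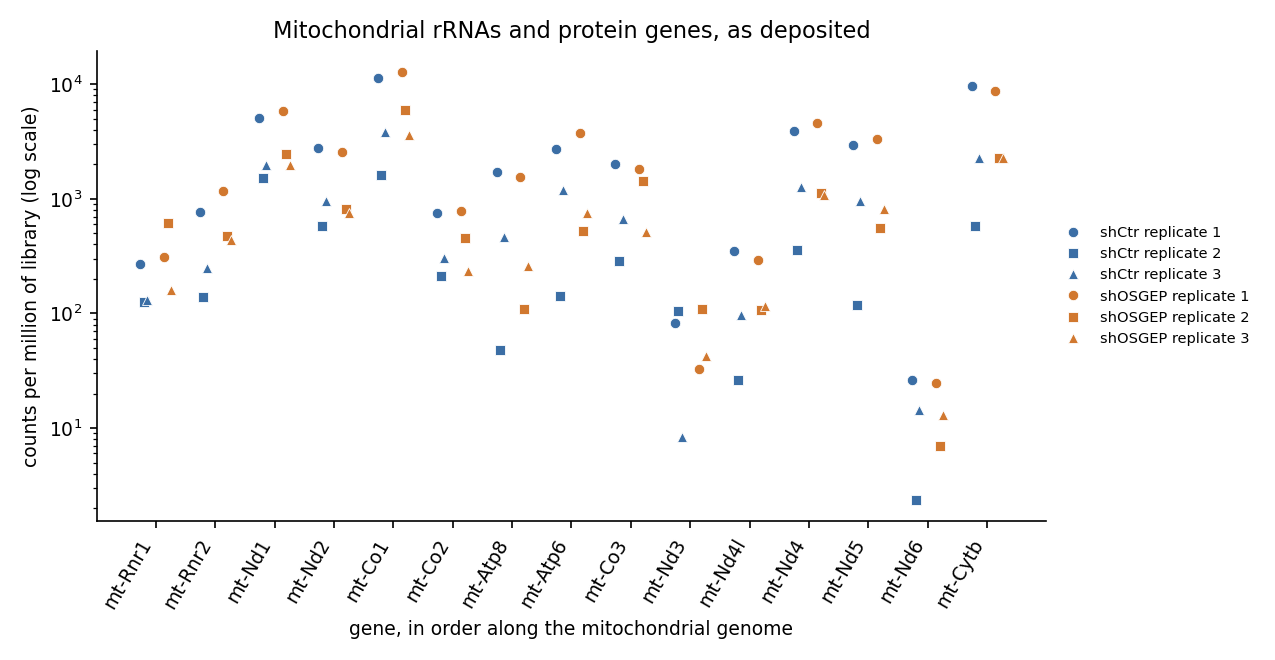
CPM on a log scale for the 13 mitochondrial protein genes and 2 rRNAs as deposited, in order along the mitochondrial genome. Each point is 1 library, coloured by group and shaped by replicate number. For most protein genes the first library of each group is highest and the second shCtr library lowest, and blue and orange points overlap for every gene.

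In the fit without a block, no mitochondrial gene differed between shOSGEP and shCtr beyond the spread of the libraries, and with the replicate block 1 of them, mt-Rnr2, passed the threshold of the study on its unadjusted p, as given with the rRNAs. In the fit over all genes, 15 of the 37 passed the filter on low counts, all 13 protein genes and both rRNAs. The quasi-likelihood test of edgeR called 0 of the 15 at an adjusted p under 0.05, as it did 0% of the 12669 genes tested, and DESeq2 and limma-voom also called 0 members. At the threshold in the methods of the study, a Log2FC beyond 0.5 with an unadjusted p under 0.05, 0 of the 15 passed, against 2.02% of all genes. At an unadjusted p under 0.05 alone, 0 of the 15 passed in edgeR. None had groups that did not overlap in CPM scaled by TMM, the library scaling used in the fit, against 6.36% of all genes. In the exact permutation test of mean log2 CPM (two-sided), the lowest p over the 15 was 0.2, where 3 libraries against 3 cannot give less than 0.1.

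The fitted Log2FC of the protein genes ran from -0.46 in mt-Nd3 to 0.32 in mt-Co1. It was above 0 for 9 genes and below 0 for 4, with a median of 0.07, beside -0.03 over all genes tested. Without the second shCtr library the median was -0.28. The SE ranged from 0.564 for mt-Co2 to 1.16 for mt-Atp8, so that every one of the 13 values was smaller than its SE. The lowest unadjusted p was 0.624, for mt-Nd3. With copies added, the values ran from -0.28 to 0.34 with a median of 0.10, and mt-Nd3 stood at 0.22 (SE 0.522). The direction of mt-Co2, mt-Atp6 and mt-Nd3 therefore depended on whether the copies were counted, and none of these values passed a test.

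The comparison within replicate numbers showed where the spread lay. The libraries were treated as paired by number, a choice made from these same data. Deviations of same-numbered libraries from their group means correlated at 0.811, 0.557 and 0.196. The third shCtr library correlated more with the first shOSGEP library, at 0.491, than with that of its own number, so the pairing is least sure for replicate 3. For the summed protein genes, shOSGEP was 1.07-fold of shCtr in replicate 1, 2.86-fold in replicate 2 and 0.888-fold in replicate 3. In replicate 2 all 13 protein genes were higher in shOSGEP in unscaled CPM, by log2 ratios of 0.04 to 2.31. In replicate 1, 6 were higher and 7 lower, and in replicate 3, 3 were higher and 10 lower. Replicate 2 is the pair that holds the shCtr library with low counts on GC-poor genes. In that pair the median log2 ratio in TMM-scaled CPM was 1.04 over the protein genes and 1.84 over the 751 nuclear genes under 40% GC, and the corresponding medians were -0.13 and 0.01 in replicate 1 and -0.22 and -0.02 in replicate 3. The part of GC content in the result was not tested beyond a fit with offsets for GC content and transcript length, in which the median Log2FC of the protein genes was -0.19.

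Adding the copies made the genes of a pair move together more closely. Over mt-Co2, mt-Atp6, mt-Co3, mt-Nd3 and mt-Nd4l, the 5 genes with over 95% of their 31-base words in copies, the SD of the log2 ratios in replicate 3 was 1.22 as deposited and 0.08 with copies added. Over all 13 genes the range in replicate 1 narrowed from between -1.33 and 0.47 to between -0.25 and 0.29. In replicate 3 it narrowed from between -0.86 and 2.34 to between -0.86 and 0.04, with mt-Atp8 at the lower end. For mt-Nd3 the log2 ratio in replicate 3 was 2.34, the largest of any protein gene in any replicate as deposited.

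**Figure D3:**
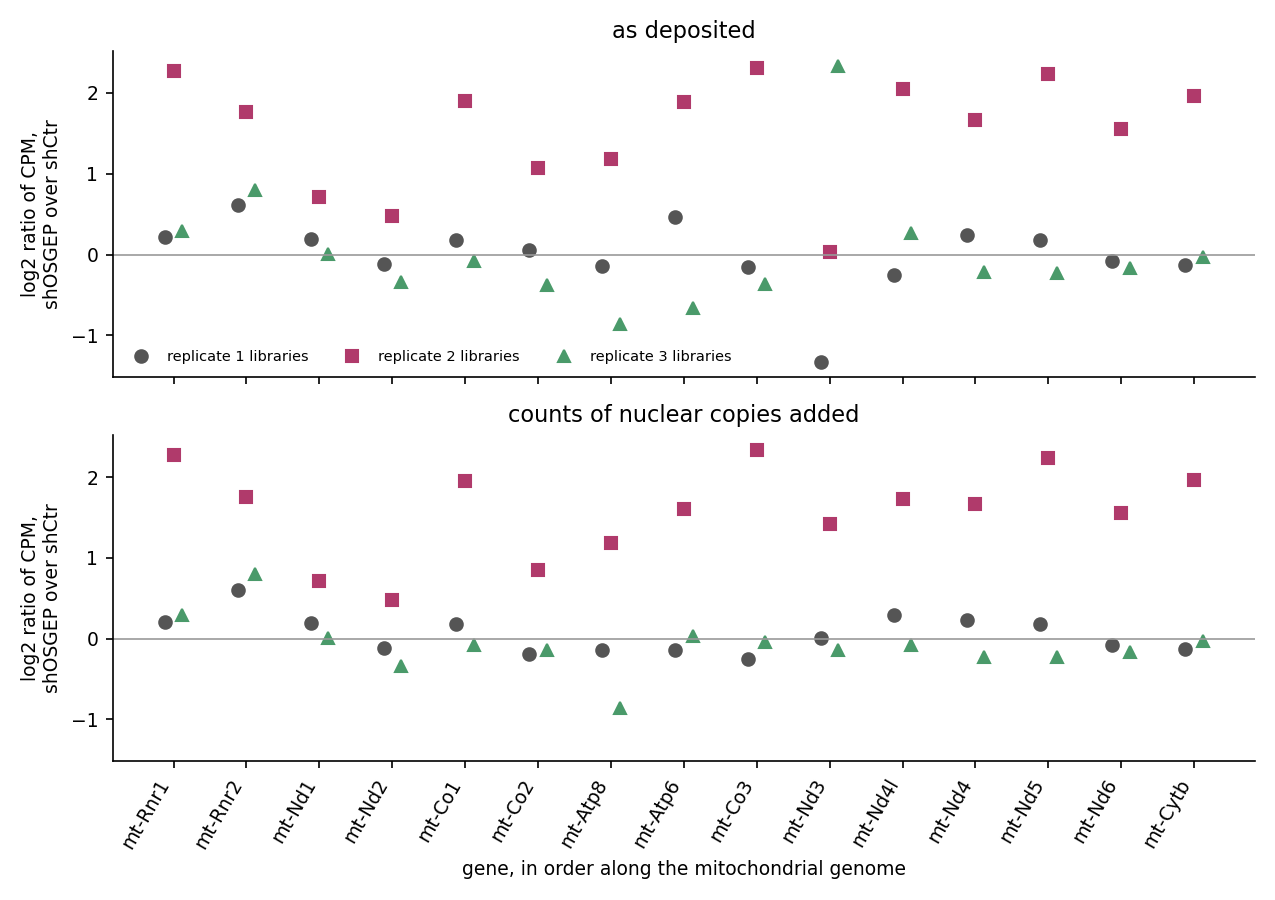
Log2 ratio of CPM, shOSGEP over shCtr, within each replicate number for 13 protein genes and 2 rRNAs, as deposited (top) and with counts of nuclear copies added (bottom). Squares of replicate 2 lie above 0 for every gene, up to 2.31 for protein genes as deposited, and the circles and triangles of replicates 1 and 3 draw together around 0 for the protein genes once copies are added, apart from mt-Atp8 in replicate 3 at -0.86. Both rRNAs lie above 0 in all 3 replicates.

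In TMM-scaled CPM, mt-Nd1 was the 1 protein gene that was higher in shOSGEP in 3 of 3 pairs, and mt-Nd2, its neighbour on the genome, was the 1 that was lower in 3 of 3. Over all genes, 17.6% were higher and 17.2% lower in 3 of 3 pairs, so these counts among 13 genes do not exceed the background. The unscaled ratios of mt-Nd1 were 0.19, 0.71 and 0.01, and those of mt-Nd2 were -0.11, 0.48 and -0.34, so the direction of mt-Nd2 in replicate 2 flipped with the scaling. With a replicate block in the fit, mt-Nd1 had a Log2FC of 0.08 (SE 0.329) and mt-Nd2 of -0.22 (SE 0.304).

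The rRNAs had the largest fitted differences among the mitochondrial genes, both towards higher levels in shOSGEP, without passing the main test. mt-Rnr1 (chrM:70-1024) encodes the RNA of the small ribosomal subunit and mt-Rnr2 (chrM:1094-2675) that of the large subunit. mt-Rnr1 was measured at 270, 127 and 131 CPM in shCtr against 312, 610 and 161 CPM in shOSGEP. mt-Rnr2 was measured at 760, 140 and 251 CPM in shCtr against 1158, 473 and 438 CPM in shOSGEP. Each shOSGEP library lay above the shCtr library of its own number for both RNAs, and the groups overlapped. mt-Rnr1 shared no 31-base word with an annotated nuclear transcript, and mt-Rnr2 shared 42 such words with Gm20594, a gene on chromosome 6 that was listed at 0 counts in all 6 libraries. Nuclear sequence outside annotated transcripts was not searched.

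Summed, the rRNAs stood at 559 ± 411 CPM (SD, n = 3) in shCtr, and at 1051 ± 436 CPM (SD, n = 3) in shOSGEP, a log2 ratio of 0.91, which was 0.57 without the second shCtr library and 1.70 without the first. Within replicate numbers the folds were 1.43, 4.07 and 1.57. In edgeR's quasi-likelihood test mt-Rnr1 had a Log2FC of 0.85 (SE 0.556, unadjusted p = 0.164) and mt-Rnr2 of 0.73 (SE 0.625, unadjusted p = 0.277), and the adjusted p was 1.00 for both. Both were higher in 3 of 3 pairs, which held for 17.6% of all genes.

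The replicate block changed 1 call at the threshold of the study. With the block, mt-Rnr2 had a Log2FC of 0.83 (SE 0.297) with an unadjusted p of 0.0342 and an adjusted p of 0.741 in edgeR, and it passed that threshold, as did 2.94% of all genes in either direction and 2.32% towards higher levels. mt-Rnr1 had a Log2FC of 0.69 (SE 0.397, unadjusted p = 0.137) and did not. Leaving out the first shCtr library without a block also put mt-Rnr2 past that threshold, at a Log2FC of 1.51 (SE 0.605), and leaving out the second shCtr library gave 0.42 (SE 0.598). Without the first shOSGEP library mt-Rnr2 stood at 0.19 (SE 0.681), the lowest value when a library was left out. Without the second shCtr library, mt-Rnr1 was at 0.84 (SE 0.602). Leaving out the second shOSGEP library took mt-Rnr1 to 0.23 (SE 0.488). With offsets for GC content and length, the Log2FC was 0.10 (SE 0.768) for mt-Rnr1 and 0.11 (SE 0.421) for mt-Rnr2, and the part of GC content in the rRNA values was not tested further.

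**Figure D4:**
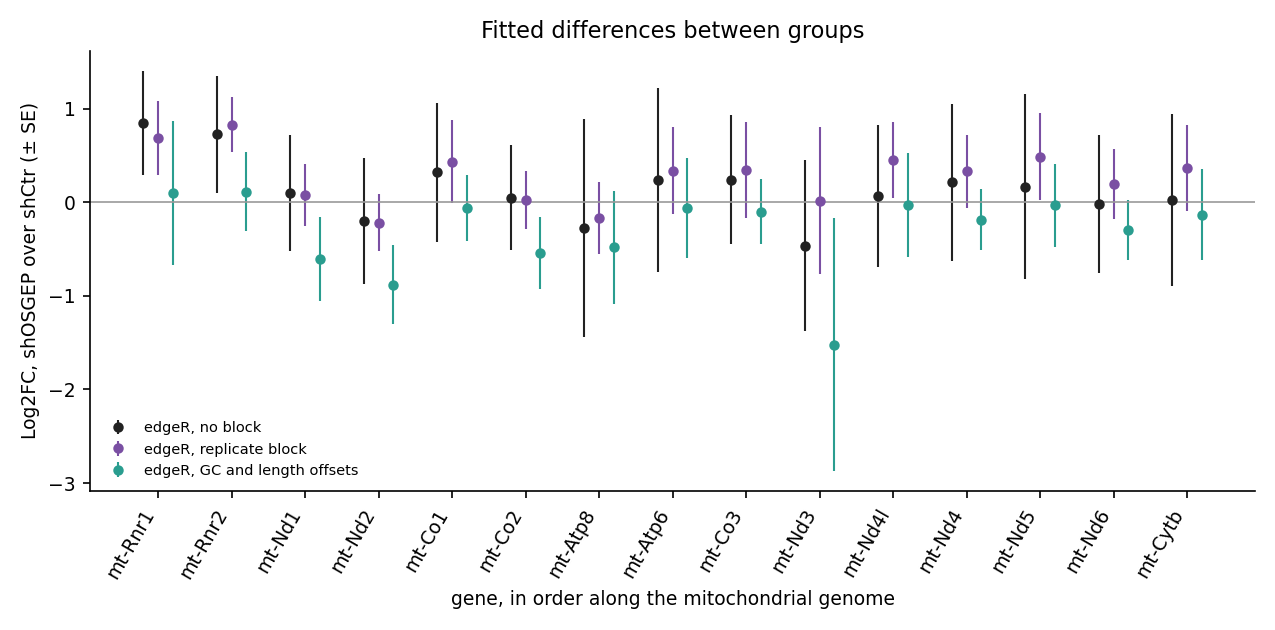
Log2FC of shOSGEP over shCtr with its SE for the 13 protein genes and 2 rRNAs, from edgeR without a block (black), with a replicate block (purple) and with offsets for GC content and transcript length (green). The black points of the protein genes lie between -0.46 and 0.32 with errors that cross 0, and the rRNA points at 0.85 and 0.73 are at 0.10 and 0.11 with the offsets.

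Set against the mitochondrial mRNAs of the same library with nuclear copies counted, mt-Rnr2 had groups that did not overlap. Per 100 counts on protein genes and their copies, it stood at 1.27, 1.79 and 1.34 in shCtr against 1.94, 2.10 and 2.50 in shOSGEP, so that every shOSGEP library exceeded every shCtr library. The means were 1.47 ± 0.284 (SD, n = 3) and 2.18 ± 0.289 (SD, n = 3). mt-Rnr1 on the same scale stood at 0.450, 1.62 and 0.702 in shCtr against 0.524, 2.71 and 0.922 in shOSGEP, higher in each pair but with groups that overlapped. With the protein genes as deposited, the gap between the groups for mt-Rnr2 all but closed. The second shCtr library then held 140 CPM of mt-Rnr2 beside 5582 CPM of protein genes. The first shOSGEP library held 1158 CPM beside 46066 CPM. The ratio to protein genes was chosen after the values had been seen and carries no test. On the same scale, 1.30% of all tested genes had groups that did not overlap, 1.12% towards higher values in shOSGEP. That share is not a like background for mt-Rnr2. The sum used as divisor ran from 7795 to 59854 CPM with groups that overlapped, and dividing by it adds this spread to genes that do not follow it.

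The rRNAs also differed from each other. The ratio of mt-Rnr1 to mt-Rnr2 was 0.355, 0.906 and 0.524 in shCtr and 0.270, 1.29 and 0.368 in shOSGEP. It was highest in the second library of both groups, and lower in shOSGEP in replicates 1 and 3 but higher in replicate 2. As the RNA was selected by its polyA tail, these values do not describe the whole rRNA pool, and how the counted rRNA was retained was not tested. In these libraries rRNA made up 2.33% to 6.34% of the counts on mitochondrial genes.

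**Figure D5:**
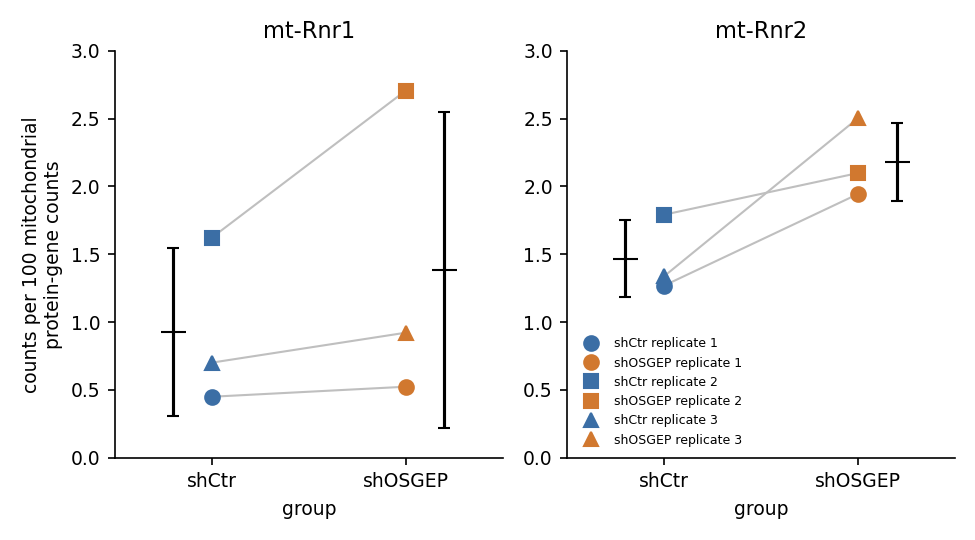
Counts of mt-Rnr1 (left) and mt-Rnr2 (right) per 100 counts on mitochondrial protein genes and their nuclear copies, by group, with lines joining libraries of the same replicate number and bars at the mean ± SD (n = 3). For mt-Rnr2 the shOSGEP points lie between 1.94 and 2.50, above all shCtr points, which lie between 1.27 and 1.79, and for mt-Rnr1 the groups overlap.

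The protein genes differ in their share of codons that start with A, which are read by the tRNAs printed above. Over the 13 genes Spearman's rho between this share and Log2FC was -0.21 as deposited and -0.42 with copies added. The corresponding value for GC content was 0.57 as deposited and 0.53 with copies added. These are descriptions over 13 genes of the same genome and the same libraries, which are not independent, and they carry no test.

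The nuclear genes that serve the mitochondrial genome and its RNA also gave 0 calls at an adjusted p under 0.05 in edgeR, in DESeq2 and in edgeR with a replicate block, in any of the 7 lists examined. In these lists 1 gene, Atf5, had an unadjusted p under 0.05 in edgeR. Over all genes tested, 2.02% had such a p together with a Log2FC beyond 0.5. Of 23 genes of mitochondrial DNA maintenance and transcription, 14 had a Log2FC above 0 and the median was 0.19. Tfam, which packages the genome and starts transcription, stood at 53.5, 4.07 and 30.2 CPM in shCtr against 46.7, 29.98 and 30.6 CPM in shOSGEP. Its Log2FC was 0.23 (SE 0.685), and -0.25 without the second shCtr library, which alone lay far from the others. Polrmt had a Log2FC of -0.61 (SE 0.499), which was -0.02 without that library. The 2 genes of the list with the smallest unadjusted p were Top3a, a topoisomerase, with a Log2FC of -0.75 (SE 0.432), and Tefm, the elongation factor of the mitochondrial polymerase, with a Log2FC of 0.91 (SE 0.591). Without the second shCtr library Tefm stood at 0.58, and without both libraries of replicate 2 at 0.07.

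Among 22 genes of mitochondrial RNA processing, tailing and decay, 9 had a Log2FC above 0 and the median was -0.04. Lrpprc, which protects mitochondrial mRNAs, had a Log2FC of -0.22 (SE 0.495), and its partner Slirp of 0.84 (SE 0.602). Without the second shCtr library they stood at -0.48 and 0.51, and Slirp stood at -0.02 without both libraries of replicate 2. Mtpap, the polyA polymerase, had a Log2FC of 0.15 (SE 0.471), which was -0.14 without the second shCtr library. The RNA-degrading pair Pnpt1 and Supv3l1 stood at -0.10 (SE 0.873) and -0.09 (SE 0.407), and at -0.61 and 0.11 without that library. Tbrg4 had a Log2FC of -0.66 (SE 0.579), which was 0.11 without it. None of the 22 genes passed the threshold of the study in edgeR without a block or with the replicate block.

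Among 20 genes of mitochondrial tRNA modification, 8 had a Log2FC above 0 and the median was -0.12. Osgepl1, the mitochondrial counterpart of Osgep, was measured at 27.8, 2.14 and 10.5 CPM in shCtr against 27.5, 23.1 and 14.1 CPM in shOSGEP. Its Log2FC was 0.62 (SE 0.717), and 0.15 without the second shCtr library. Yrdc, which makes the precursor of t6A for both enzymes, had a Log2FC of -0.40 (SE 0.505), which was 0.17 without that library. Trmt1 and Pus1, a tRNA methyltransferase and a pseudouridine synthase, had the smallest unadjusted p of the list, with Log2FC of -0.95 (SE 0.598) and -0.66 (SE 0.493), which were 0.01 and -0.12 without it.

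The 7 genes of mitochondrial rRNA modification had a median of -0.23, with 3 above 0. Tfb1m, which methylates the small-subunit rRNA, had a Log2FC of 0.80 (SE 0.569), and Mrm2, a methyltransferase of the large-subunit rRNA, of -0.74 (SE 0.581). Without the second shCtr library Mrm2 stood at -0.03 and Tfb1m at 0.77, and without the second shOSGEP library Tfb1m stood at 0.02. Of 15 translation factors 14 were tested, with 6 above 0 and a median of -0.09. The elongation factor gene Tufm had a Log2FC of -0.71 (SE 0.550) and the release factor gene Mtrf1 of 0.58 (SE 0.648), which were -0.02 and 0.17 without the second shCtr library. The 45 nuclear subunits of the complexes that also hold mitochondrial subunits had a median of -0.32, with 34 below 0. Their median log2 ratios within pairs were -0.23, -0.61 and 0.13, so the direction was not shared by replicate 3. Atp5a1 of complex V had the smallest unadjusted p of the list, with a Log2FC of -0.77 (SE 0.522), which was -0.27 without the second shCtr library.

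Of 16 genes of mitochondrial proteases, chaperones and the stress relay, 8 had a Log2FC above 0 and the median was 0.01. In this list 4 (25%) had groups that did not overlap in TMM-scaled CPM, against 6.36% of all genes. The share was from 0% to 10% in the other lists, and over the 7 lists together it was below that of all genes. The 4 genes were Atf5, Eif2ak1, the protease gene Oma1 with a Log2FC of 0.42 (SE 0.426) and the chaperone gene Hspa9 with a Log2FC of 0.66 (SE 0.411), the last pair being named after their values were seen. Eif2ak1 was lower in shOSGEP and the others were higher. Atf5, a transcription factor linked to the mitochondrial unfolded protein response, was the 1 gene of all 7 lists past the threshold of the study, without a block and with the replicate block. That threshold was passed by 2.02% of all genes without a block and by 2.94% with it, so the 7 lists together held a smaller share of such genes than the background. Atf5 stood at 23.5, 49.0 and 42.4 CPM in shCtr against 80.9, 187 and 131 CPM in shOSGEP. Every shOSGEP library exceeded every shCtr library, and values were higher in 3 of 3 pairs. Its Log2FC was 1.48 (SE 0.563, unadjusted p = 0.0293) in edgeR, 1.55 (SE 0.267) with the replicate block and 2.00 without the second shCtr library, with an adjusted p of 1.00. Eif2ak1, the kinase gene in the list of the stress relay, had a Log2FC of -0.30 (SE 0.365), which was -0.18 without the second shCtr library. Phb2, a prohibitin of the inner membrane, had the second smallest unadjusted p of the list, with a Log2FC of -1.18 (SE 0.613), which was -0.28 without the second shCtr library.

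With offsets for GC content and length together with the replicate block, 5 genes of the 7 lists passed the threshold of the study. This was a smaller share of the genes tested in the lists than the 6.5% of all genes tested. Atf5 stood at 1.83 (SE 0.259) in that fit. The others, named after their values were seen, were Rrm2b, a ribonucleotide reductase subunit, at 1.37 (SE 0.437), Top3a at -0.61 (SE 0.176), Fastk at 0.52 (SE 0.196) and Fastkd5, which acts in mitochondrial RNA processing, at -0.77 (SE 0.261). The adjusted p in edgeR was 0.549 for all 5.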

How the data were processed

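Total RNA of 3 infections per group was made into polyA libraries from 500 ng with a TruSeq kit that was not stated to keep the strand, and sequenced in paired reads of 100 bases. Per the methods and the submitters' processing notes, the authors trimmed reads, aligned them to GRCm38 with STAR 2.6.1d and quantified genes with Salmon 1.4.0. The annotation release was not given in the sources used here. The deposited values are estimated counts per gene, written as whole numbers, with no normalization or filter. Salmon divides reads shared by several transcripts by likelihood, so genes with near-identical copies carry uncertain values.

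Groups and replicate numbers came from the labels. Genes were kept by filterByExpr (minimum count 10, minimum total 15), scaled by TMM and tested with edgeR 4.0.16 in R 4.3.3 by the two-sided quasi-likelihood F-test without a block, with Benjamini-Hochberg adjustment over 12669 genes. The SE of a Log2FC was its size divided by the square root of F. DESeq2 1.42.0 and limma 3.58.1 served as alternatives. The fit was also run on simulated counts. Those counts held no GC-dependent shift and no deviation shared between libraries, so the run does not measure how the fit handles either. Depth limits a gene without counts to under 3 counts per library. Correlations across genes of the deviations of same-numbered libraries from their group means were 0.811, 0.557 and 0.196, all above 0.1, so numbers were treated as pairing libraries, although libraries of different numbers reached 0.491. What a number marks was not stated.

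Sequences, lengths, GC content and positions came from GENCODE M21 on GRCm38, which held 99.4% of identifiers. Nuclear copies were annotated pseudogenes whose transcripts share at least 30 words of 31 bases with a mitochondrial gene. Of these, 15 were counted, and those with at least 100 counts in a library were named. All members were named except tRNAs under 10 counts that do not read codons starting with A. The list fixed for naming held mt-Ts1 as the serine tRNA of this class in error, and mt-Ts2, which carries the anticodon in question, was used in its place. From each nuclear list the 2 genes with the smallest unadjusted p and a few central genes were named, except a gene that is not reported here. The members and lists were chosen with earlier results of these data known.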

Additional observations from a re-analysis of the deposited data

How the results depend on the processing

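With 3 libraries per group, differences of the size of the library spread could not be told from 0. In the alternatives run, 0 mitochondrial genes passed an adjusted p under 0.05 in any. The count past the threshold of the study, 0 in the reported fit, was 1 with limma-voom and sample quality weights (mt-Nd3, Log2FC 1.73), 1 with the replicate block (mt-Rnr2), 1 with the replicate block and nuclear copies added (mt-Rnr2, chosen after seeing the data), and from 0 to 1 when libraries were left out, with mt-Rnr2 passing without shCtr replicate 1. The replicate block changed no other call. The median Log2FC of the rRNAs, 0.79 as reported, was 0.11 with offsets for GC content and length and 0.21 with offsets and the replicate block. When 1 library or both of a number were left out, the rRNA median ran from 0.41 to 1.31, the protein-gene median from -0.54 to 1.15, the log2 ratio of summed rRNAs from 0.55 to 1.70 and that of summed protein genes from -0.56 to 1.34, with the highest value of each without shCtr replicate 1. Without shCtr replicate 2 the protein-gene median was -0.28. The cause was not tested.

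No mitochondrial gene was called, so changes of sign concern values within their error. They occurred in 70 of 330 comparisons of single genes and never for an rRNA. With the replicate block mt-Nd3 was at 0.019 and mt-Nd6 at 0.20. With nuclear copies added mt-Co2 was at -0.12, mt-Atp6 at -0.044 and mt-Nd3 at 0.22, and with the replicate block as well mt-Co2 was at -0.054, mt-Nd3 at 0.20 and mt-Nd6 at 0.20. Limma-voom put mt-Nd2 at 0.029, mt-Atp6 at -0.067 and mt-Nd3 at 1.73. Upper-quartile scaling put mt-Nd6 at 0.050 and no scaling at 0.055. With offsets, mt-Nd1 was at -0.61, mt-Co1 at -0.063, mt-Co2 at -0.54, mt-Atp6 at -0.063, mt-Co3 at -0.10, mt-Nd4l at -0.029, mt-Nd4 at -0.19, mt-Nd5 at -0.030 and mt-Cytb at -0.13, and with offsets and the replicate block the values were mt-Nd1 -0.46, mt-Co1 -0.090, mt-Co2 -0.50, mt-Atp6 -0.20, mt-Co3 -0.15, mt-Nd4 -0.23, mt-Nd5 -0.070 and mt-Cytb -0.16. Without single libraries or numbers, mt-Atp6 ran from -1.08 to 1.17, mt-Atp8 from -1.99 to 1.15, mt-Co1 from -0.26 to 1.18, mt-Co2 from -0.41 to 0.57, mt-Co3 from -0.25 to 1.12, mt-Cytb from -0.87 to 1.39, mt-Nd1 from -0.47 to 0.62, mt-Nd2 from -0.95 to 0.51, mt-Nd3 from -1.14 to 0.46, mt-Nd4 from -0.76 to 1.26, mt-Nd4l from -0.49 to 1.26, mt-Nd5 from -0.95 to 1.38 and mt-Nd6 from -0.54 to 0.65. No alternative was run for the tRNA sum, since its counts lay at or under the limit that a count of 0 allows.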
